A study of Mus musculus with 4 samples.

Results

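The colony-stimulating factors and their receptors are described here across 4 arrays of mouse synovial fibroblast cultures. The 7 genes are the ligands Csf1, Csf2 and Csf3 and the receptor genes Csf1r, Csf2ra, Csf2rb and Csf3r. A probe set was taken where its annotated gene symbol was exactly 1 of these names, which gave 13 of 22690 probe sets and 7 of 12393 genes. The cells were grown from the knees of male DBA/1J mice aged 8 to 12 weeks that had no arthritis, passaged 3 to 4 times and held in medium with 1% heat-inactivated serum. Dishes were treated for 6 h with vehicle, with IL-1beta at 5 ng/ml, with IL-1beta and 1 µM indomethacin, or with IL-1beta, 1 µM indomethacin and 1 µM iloprost. Indomethacin inhibits the cyclooxygenases and so the synthesis of prostanoids. Iloprost acts on the prostacyclin receptor in place of prostacyclin itself, which is short-lived. Each treatment has 1 array, so no value has an error between dishes, no p-value is given, and every difference describes these 4 dishes. Per the series title, the question was what prostacyclin signalling does in synovial fibroblasts activated by IL-1beta.

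Colony-stimulating factors were named for the blood cell colonies they support in culture. Csf1 encodes M-CSF, which keeps macrophages alive and, with RANKL, lets them become osteoclasts. It binds the receptor tyrosine kinase encoded by Csf1r. Csf2 encodes GM-CSF, which activates macrophages, granulocytes and dendritic cells through a ligand-specific alpha chain, Csf2ra, and a signalling beta chain, Csf2rb, that also serves the receptors for IL-3 and IL-5. Mice carry a close copy of the beta chain gene, Csf2rb2, whose product serves IL-3 alone. Csf3 encodes G-CSF, which drives the output of neutrophils through the homodimeric receptor encoded by Csf3r. In the joint, fibroblasts are a known source of the ligands, while the receptors are carried mainly by myeloid cells.

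Signals were scaled so that the median log2 signal of the 10437 probe sets above the 50th percentile on every array was equal across arrays. Scaled signals up to 37.7, the 50th percentile over the 4 arrays, were set to that floor and have no order among themselves. Where 1 of a pair of arrays was at the floor, the log2 ratio is a limit and is given with "at least" or "at most". Before scaling, the median of those 10437 probe sets was brighter by 0.25 on the log2 scale with IL-1beta than with vehicle, and its other shifts were -0.15 for added indomethacin, -0.01 for added iloprost and -0.16 for IL-1beta and both drugs against IL-1beta alone. The log2 ratios of the 2 probe sets of a gene differed with an SD per probe set of 0.17 to 0.19, and of 0.23 to 0.27 where both lay below a scaled signal of 113. Steps between arrays are described below against 2 of these SDs, which measure how far probe sets of a gene disagree. They cover neither errors shared by the probe sets of an array nor differences between dishes. The arrays held RNA of fibroblast markers and of macrophage markers. Of 14 fibroblast markers with a probe set, 14 were above the floor on at least 1 array, with Col1a2, a type I collagen gene, at 5082 to 6163. Of 24 macrophage markers 22 were above the floor on every array, with Cd163 and Mertk at the floor on all 4, and the lysozyme gene Lyz2 stood at 5402 to 6063. The labels call the cells synovial fibroblasts, and how many cells of each kind a dish held cannot be told from these values, nor can fewer cells of a kind be told apart from less RNA per cell.

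RefSeq promoter windows of assembly GRCm38.p6 were available for 4 of the 7 genes, Csf1, Csf2, Csf2ra and Csf3r, and for the paralogue Csf2rb2. The windows printed here are the 250 bases before the annotated start, 5′ to 3′ on the gene's strand. Csf1 and Csf2 are shown because both ligands were brightest with IL-1beta and indomethacin, Csf2ra because its signal differed little, and Csf2rb2 because it was brightest with iloprost. The Csf1 window lies at chr3:107760470-107760719, that of Csf2 at chr11:54249900-54250149, that of Csf2ra at chr19:61228419-61228668 and that of Csf2rb2 at chr15:78305722-78305971, all on the minus strand.
Csf1: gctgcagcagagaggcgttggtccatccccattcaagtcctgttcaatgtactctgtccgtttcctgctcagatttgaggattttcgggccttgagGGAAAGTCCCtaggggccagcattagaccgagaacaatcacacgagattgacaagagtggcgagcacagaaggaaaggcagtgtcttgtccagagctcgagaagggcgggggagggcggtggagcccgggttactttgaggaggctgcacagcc
Csf2: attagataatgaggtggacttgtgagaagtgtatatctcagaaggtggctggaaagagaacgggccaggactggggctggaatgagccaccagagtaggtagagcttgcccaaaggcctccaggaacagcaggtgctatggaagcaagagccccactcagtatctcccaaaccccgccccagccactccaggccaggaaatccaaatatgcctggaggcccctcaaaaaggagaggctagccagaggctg
Csf2ra: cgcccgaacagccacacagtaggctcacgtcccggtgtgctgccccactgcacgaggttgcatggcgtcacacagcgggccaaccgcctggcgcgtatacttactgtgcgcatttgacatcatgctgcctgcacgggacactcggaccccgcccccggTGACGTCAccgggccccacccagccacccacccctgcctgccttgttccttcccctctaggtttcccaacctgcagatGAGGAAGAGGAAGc
Csf2rb2: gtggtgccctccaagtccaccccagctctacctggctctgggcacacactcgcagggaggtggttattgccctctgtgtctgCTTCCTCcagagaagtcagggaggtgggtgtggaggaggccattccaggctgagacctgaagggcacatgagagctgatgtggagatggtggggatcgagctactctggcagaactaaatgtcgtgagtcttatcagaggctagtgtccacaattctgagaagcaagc
Capitals mark matches, on either strand, to the NF-kB consensus (found in 3.9% of 32851 such windows), AP-1 (TGANTCA, 6.75%), CRE (TGACGTC, 2.78%), the CK-1 core (AGATTCC, 3.14%), the NFAT core (GGAAAA, 20.4%), PU.1 (GAGGAAG, 10.6%) or TATAAA (12.4%). A C/EBP pattern (TTNNGNA) was in 75% of windows and is not capitalised. The Csf1 window holds an NF-kB match at 154 to 145 bases before the start. The Csf2ra window holds a CRE match on each strand, which overlap at 92 to 85 bases before the start, and 2 overlapping PU.1 matches. The Csf2rb2 window holds a PU.1 match 168 to 162 bases before the start. The Csf2 window holds none of the capitalised motifs in these 250 bases. Other bases near Csf2 were not searched, so this does not tell whether its promoter holds such motifs elsewhere. A match is a description of these letters and not evidence that a factor binds there.

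Csf2, which encodes GM-CSF, had the widest range of the 7 genes on the floored scale. Its probe set 1427429_at had deposited signals of 1.6 with vehicle, 79.0 with IL-1beta, 241.2 with IL-1beta and indomethacin, and 28.3 with iloprost added. The scaled signals were 1.73, 71.7, 243 and 28.6, so Csf2 was above the floor only on the IL-1beta array and the array with indomethacin. IL-1beta stood higher than vehicle by a log2 ratio of at least 0.93, and indomethacin added 1.76 to that, a 3.39-fold difference between measured signals. With iloprost the ratio to IL-1beta and indomethacin was at most -2.69, at least 6.45-fold lower. Against IL-1beta alone, the dish with both drugs stood at a ratio of at most -0.93. Both steps above the floor, from iloprost to IL-1beta alone and from there to indomethacin, were larger than 2 SDs of probe-set noise. The vehicle and iloprost arrays were both at the floor and have no order.

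Csf3, which encodes G-CSF, shared with Csf2 a signal at the floor with vehicle but not its maximum. Its probe set 1419427_at had scaled signals of 4.00 with vehicle, 88.4 with IL-1beta, 66.2 with indomethacin and 40.3 with iloprost. IL-1beta was the highest array and iloprost stood just above the floor. The log2 ratio was at least 1.23 for IL-1beta against vehicle and -0.42 for added indomethacin, a step within 2 SDs. Added iloprost stood at -0.71, a step larger than 2 SDs, and both drugs against IL-1beta alone at -1.13, or 2.19-fold lower. The brightest of these signals was 2.35-fold above the floor, and a floor raised to the 65th percentile left the IL-1beta ratio at a bound of 0.02.

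Csf1, which encodes M-CSF, was bright on every array and differed by less than 2-fold in each of the 4 main comparisons. Its brightest probe set, 1460220_a_at, had scaled signals of 1498 with vehicle, 1981 with IL-1beta, 2636 with indomethacin and 1541 with iloprost. All 4 probe sets of Csf1 gave the same maximum, with indomethacin. Over them the log2 ratios ran from 0.17 to 0.41 for IL-1beta against vehicle, from 0.41 to 0.67 for added indomethacin and from -0.997 to -0.72 for added iloprost. The steps from IL-1beta to indomethacin were larger than 2 SDs in 4 of 4 probe sets. The vehicle and iloprost arrays differed by -0.09 to 0.12, within 2 SDs in each of them. IL-1beta with indomethacin stood above vehicle by 0.76 to 1.01, and the highest of these, for probe set 1448914_a_at, was a 2.01-fold difference.

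**Figure D1:**
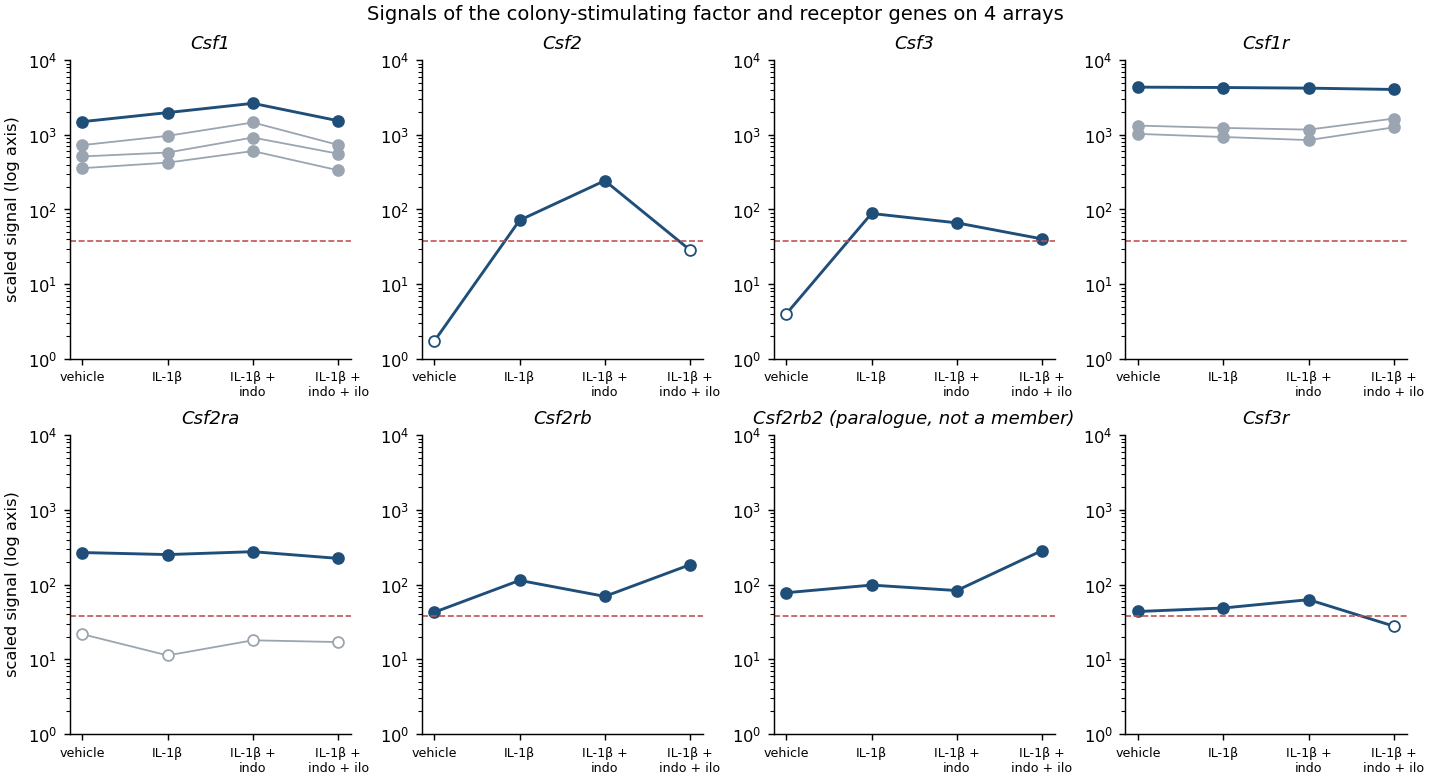
Scaled signal (log axis) of every probe set of the 7 genes and of the paralogue Csf2rb2 on the 4 arrays, 1 dish each, with indo for indomethacin and ilo for iloprost. Dark blue marks the probe set that stands for the gene, grey its other probe sets, open circles signals at or below the floor of 37.7 (dashed), and lines only join points. Csf1 and Csf2 peak with indomethacin at 2636 and 243, Csf3 with IL-1beta at 88.4, and Csf2rb and Csf2rb2 with iloprost at 184 and 285.

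Among the receptor genes, the shared beta chain Csf2rb had the widest range and a different order from that of Csf2. Its probe set 1421326_at had scaled signals of 42.6 with vehicle, 114 with IL-1beta, 69.4 with indomethacin and 184 with iloprost. Vehicle was lowest and iloprost highest, and each step between neighbours in this order was larger than 2 SDs. The log2 ratio was 1.42 for IL-1beta against vehicle, -0.71 for added indomethacin and 1.41 for added iloprost. IL-1beta with both drugs stood 0.70 above IL-1beta alone and 2.11, or 4.33-fold, above vehicle. The vehicle signal lay just above the floor, and a floor raised to the 65th percentile left the IL-1beta ratio at a bound of 0.39.

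The paralogue Csf2rb2, which is not among the 7 genes, had scaled signals of 77.8, 98.4, 83.1 and 285 in the same order of treatments. The first 3 arrays lay within 2 SDs of their neighbours and the iloprost array stood apart, at 1.78 against IL-1beta and indomethacin. IL-1beta against vehicle was 0.34 for Csf2rb2, where it was 1.42 for Csf2rb. The genes are near copies, so signals of 1 may include RNA of the other, and the part of such cross-hybridisation was not tested. A further probe set that the annotation gives to both genes was not used.

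The alpha chain Csf2ra, which binds GM-CSF, differed little between arrays. Its probe set 1420703_at had scaled signals of 268 with vehicle, 252 with IL-1beta, 275 with indomethacin and 224 with iloprost. No step between neighbours was larger than 2 SDs, and the log2 ratios were -0.09 for IL-1beta, 0.13 for added indomethacin and -0.30 for added iloprost. On the deposited scale the signs of the first and second of these turned, to 0.16 and -0.02. The other Csf2ra probe set, 1420704_at, was at the floor on all 4 arrays, with scaled signals of 11.3 to 21.6.

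Csf3r, the G-CSF receptor gene, lay close to the floor. The scaled signals of probe set 1418806_at were 43.6 with vehicle, 48.5 with IL-1beta, 62.8 with indomethacin and 27.7, at the floor, with iloprost. No step between neighbours was larger than 2 SDs, though the ends of the order, indomethacin and iloprost, were apart by a ratio of at most -0.74. Of 14 neutrophil and granulocyte precursor markers with a probe set, 10 were at the floor on all arrays, among them Mpo, Elane and Cxcr2. The summed scaled signal of those markers was 2238, 2659, 2652 and 1402 in the order of treatments above. Most of it came from Fpr2, at 1502, 1439, 1284 and 537, and Mmp9, at 620, 1059, 1264 and 648. The other markers above the floor on any array were instead highest with iloprost, Camp at 111 and S100a8 at 48.4. The part of such cells in the Csf3r values was not tested.

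Csf1r, the M-CSF receptor gene and a macrophage marker itself, was bright on all 4 arrays. Its brightest probe set, 1419872_at, had scaled signals of 4343 with vehicle, 4293 with IL-1beta, 4210.4 with indomethacin and 4043 with iloprost. These signals lay within 2 SDs of each other from neighbour to neighbour, and the iloprost ratio was -0.06. The other probe sets, 1419873_s_at and 1423593_a_at, were instead highest with iloprost. Probe set 1419873_s_at read 1327, 1236, 1172 and 1649, and 1423593_a_at read 1027, 934, 849 and 1258. Their ratios for added iloprost were 0.49 and 0.57, so the 3 probe sets do not share a direction in this comparison. No direction is therefore given for Csf1r under iloprost, and for IL-1beta against vehicle the 3 ratios of -0.14 to -0.02 turned to 0.12 to 0.24 on the deposited scale.

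Macrophage markers were set beside the receptor genes, since macrophages are known to carry these receptors. Their summed scaled signal was 41607 with vehicle, 40512 with IL-1beta, 38234 with indomethacin and 35755 with iloprost. With iloprost against IL-1beta and indomethacin the median of 22 markers was -0.26, against 0.05 over all genes. Of these markers, 2 were at least 2-fold lower, where 3.14% of all genes were, and 0 higher, where 2.1% were. The 2 were Fcgr1, which encodes an Fc receptor, at -1.45 and Marco, a scavenger receptor, at -1.17. Other markers stood higher with iloprost, among them Fcgr3 at 0.81 and Cd14 at 0.63. The summed signal was lowest on the iloprost array, where Csf2rb, Csf2rb2 and 2 of 3 Csf1r probe sets were highest. The part of macrophage RNA in the levels of Csf1r, Csf2ra and Csf2rb was not tested.

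**Figure D2:**
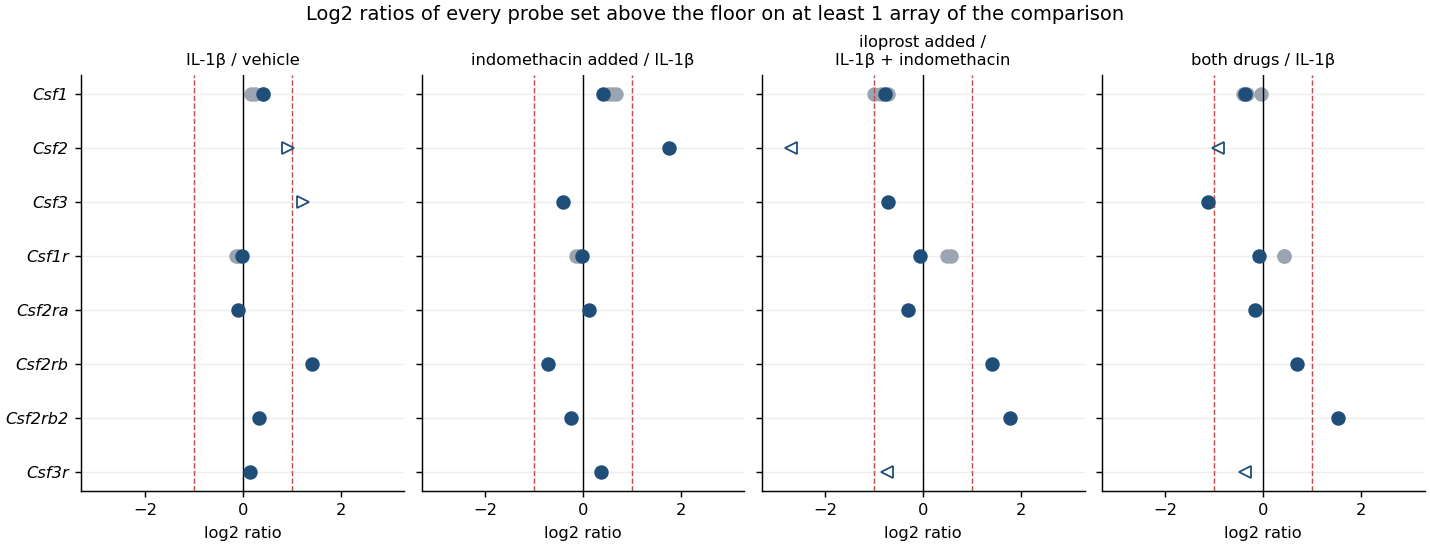
Log2 ratios of the same probe sets in 4 comparisons, after scaling on the 10437 probe sets above the 50th percentile on every array, with 1 array on each side. Filled circles are ratios measured above the floor on both arrays, open triangles are bounds that point away from 0, dark blue marks the gene's own probe set and grey the others, and dashed lines mark 2-fold. Csf2 stands at 1.76 with indomethacin and at most -2.69 with iloprost, and Csf2rb at -0.71 and 1.41.

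The counts at a 2-fold difference were read against all genes. With IL-1beta against vehicle, 2 of 7 genes were at least 2-fold higher, Csf3 and Csf2rb, where 1.64% of 6946 genes were, and 0 were lower, where 0.547% were. The bound for Csf2, 1.90-fold, fell short of the threshold. Csf2 passed it, which made 3 of 7, on the deposited scale, with the floor at the 35th percentile and with a pseudocount in place of the floor. Of all genes, 2.8%, 2.07% and 1.06% were at least 2-fold higher under these settings. The log2 ratio of Csf2 ran from 0.82 to 2.38 over the alternatives. The median of the 7 ratios was 0.40, against -0.04 over all genes. With indomethacin added, 1 gene was at least 2-fold higher, Csf2, against 0.249% of 6833 genes, and 0 were lower, against 0.673%. The median of the 7 was 0.13, against 0.00 over all genes. Beside vehicle, IL-1beta with indomethacin had 1 gene at least 2-fold higher, again Csf2 with a bound of 2.69, against 1.25% of 6900 genes, and 0 lower, against 0.333%.

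With iloprost added to IL-1beta and indomethacin, 1 gene was at least 2-fold lower, Csf2, against 3.14% of 7007 genes, and 1 was higher, Csf2rb, against 2.1%. At 1.5-fold, Csf1, Csf3 and Csf3r joined Csf2 among the lower genes, which made 4 of 7, against 6.94% of all genes. The median of the 7 was -0.71, against 0.05. All 3 ligands thus stood lower with iloprost, with ratios of at most -2.69, -0.71 and -0.77 for Csf2, Csf3 and Csf1, while of the GM-CSF receptor chains the alpha chain was at -0.30 and the beta chain at 1.41. IL-1beta with both drugs against IL-1beta alone gave 1 gene at least 2-fold lower, Csf3, against 2.29%, and 0 higher, against 0.916%. Against vehicle the same dish had 1 gene at least 2-fold higher, Csf2rb, against 2.74% of 7068 genes, and 0 of the 6 measured were lower, against 3.37%. In that comparison Csf2 was at the floor on both arrays. The comparisons share arrays, so noise on the IL-1beta array or on the array with indomethacin enters neighbouring ratios with opposite signs.

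The other ligands and receptors of these families were mostly at the floor. Of 11 listed, 10 had a probe set and 4 were above the floor, the second M-CSF receptor ligand gene Il34, the IL-3 receptor alpha chain Il3ra, the stem cell factor gene Kitl and Csf2rb2. Il3, Il5, Il5ra, Kit and Flt3 were at the floor on all arrays. Kitl had scaled signals of 171, 82.8, 148 and 78.0, and its ratio for IL-1beta against vehicle was -1.04. Il34 read 51.8, 41.5, 55.5 and 39.9, with no ratio past 2-fold in the 4 main comparisons.

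Few of the genes that carry or damp the signals of these receptors passed 2-fold. Of 18 JAK-STAT and feedback genes 16 were measured with IL-1beta against vehicle, and 1 was at least 2-fold higher, the receptor inhibitor Socs3 at 1.75, where 1.64% of all genes were, and the list median was -0.12. With iloprost added 1 of 16 was at least 2-fold lower, the phosphatase gene Ptpn6, which restrains cytokine receptor signalling in myeloid cells, at -1.40, where 3.14% of all genes were, and the list median was 0.02. Among 14 measured adaptors and kinases next to the receptors, 0 were past 2-fold with IL-1beta, where 1.64% of all genes were higher and 0.547% lower. With iloprost 1 was at least 2-fold lower, the adaptor Sla at -1.28, where 3.14% of all genes were. Of 5 genes of receptor shedding and trafficking, 0 passed 2-fold in the 4 main comparisons. Of all genes, 0.249% to 2.1% were at least 2-fold higher in these and 0.547% to 3.14% lower. Adam17, a sheddase that cleaves the M-CSF receptor, stood at -0.90 with iloprost.

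Transcripts of Csf2 and Csf3 carry AU-rich elements, which mark them for decay. A list around such decay had 10 measured genes, not all of them decay factors or binders of AU-rich elements. Of these 1 was at least 2-fold higher with IL-1beta, the RNase gene Zc3h12a at 3.13, where 1.64% of all genes were. With indomethacin or with iloprost added 0 passed 2-fold. Of all genes, 0.249% and 2.1% were at least 2-fold higher in these 2 comparisons and 0.673% and 3.14% lower. Zfp36, which binds AU-rich elements, read 422, 385, 423 and 302. The listed genes of the same family had other orders, Zfp36l1 with 920, 677, 645 and 834 and Zfp36l2 with 644, 322, 574 and 506. A list of regulators of the Csf2 and Csf3 promoters had 21 measured genes, among them an inhibitor of NF-kB, which is not itself a promoter factor. Of these, 3 were at least 2-fold higher with IL-1beta, where 1.64% of all genes were. They were Fosl1 of the AP-1 family at 1.88, Ets1 at 1.81 and the cAMP-responsive factor Crem at 1.52. With indomethacin Crem was the 1 gene past 2-fold, at -1.21. With iloprost 2 were higher, Crem at 2.06 and Nfatc1 at 1.09, where 2.1% of all genes were. In that comparison 0 were lower, where 3.14% of all genes were, and the list median was -0.19. Crem had the order of Csf2rb over the 4 arrays, with 73.5, 211, 91.3 and 380 as scaled signals. Other listed genes shared this order, among them Csf2rb2, the macrophage marker Fcgr3 and the fibroblast marker Pdpn. Crem was not among the 5 genes nearest to Csf2rb, and a link between the 2 was not tested.

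Of 12 myeloid transcription factors known from the receptor genes, 8 were above the floor. With iloprost their median was -0.60, against 0.05 over all genes. At least 2-fold lower were 3 of 8, where 3.14% of all genes were, Irf8 at -1.50, Egr1 at -1.31 and Mitf at -1.22. Klf4 at 0.92 and Runx1 at 0.08 stood higher, and 0 of 8 were at least 2-fold higher, where 2.1% of all genes were. The PU.1 gene Spi1 read 866, 734, 807 and 589, a ratio of -0.45 with iloprost. With IL-1beta 1 of 8 was at least 2-fold higher, Egr1 at 1.03, where 1.64% of all genes were.

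**Figure D3:**
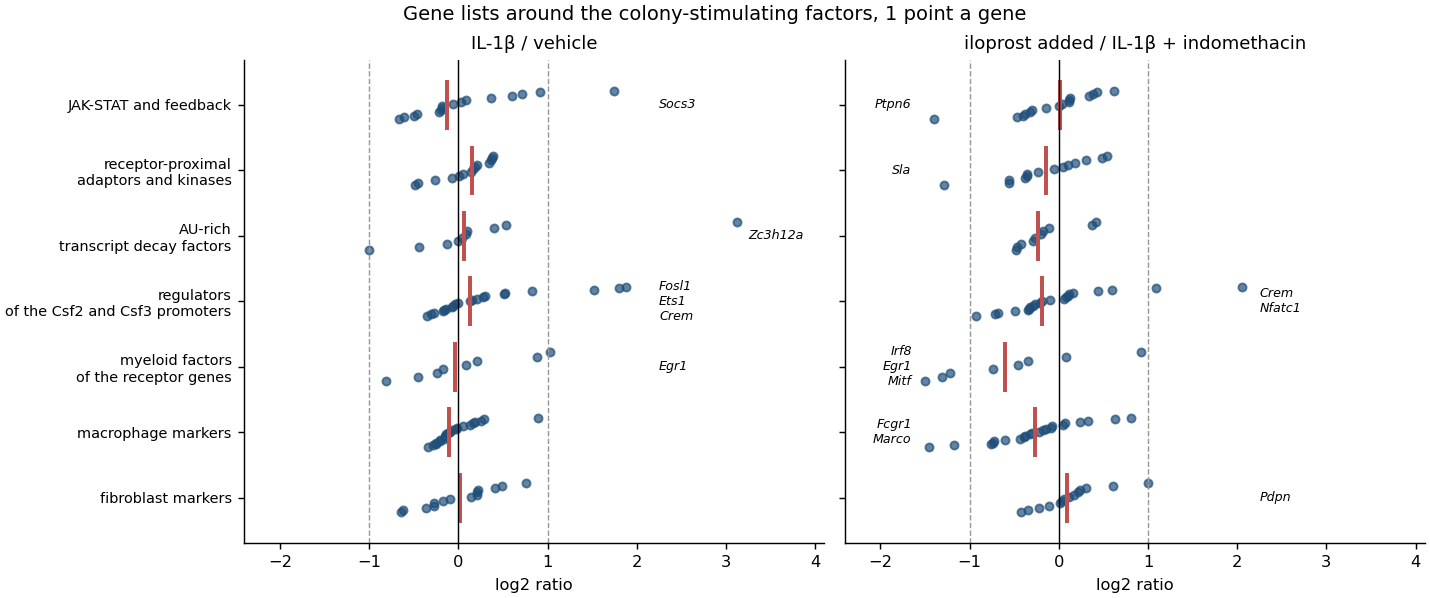
Log2 ratios of the genes of 7 lists for IL-1beta against vehicle and for iloprost added to IL-1beta and indomethacin, 1 point a gene, with red bars at the list median, solid lines at 0 and dashed lines at 2-fold. Gene names are given for points past 2-fold. The median of the myeloid factors stands at -0.60 with iloprost, and Zc3h12a at 3.13 with IL-1beta is the farthest point.

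Markers of other cells that carry these receptors or make Csf2 were largely at the floor. Of 10 lymphocyte markers 9 were at the floor on all arrays, among them Cd3e, Cd3d and Cd79a, and the exception was Il7r, at 125 with iloprost and at the floor elsewhere. Of 11 mast cell, eosinophil and basophil markers 9 were at the floor throughout, and so were 10 of 13 dendritic cell markers, among them Itgax and Flt3. Of the other 3, Cd207 stood at 3.54 and Cd83 at 1.19 with iloprost, where 2.1% of all genes were at least 2-fold higher. The third, Cd74, was at the floor with iloprost, at a ratio of at most -0.004. Of 11 osteoclast genes with a probe set 9 were above the floor on at least 1 array. Tnfsf11, the gene of RANKL, which acts beside M-CSF, read 11.8, 180.5, 24.0 and 168. With indomethacin, where Csf1 was brightest, Tnfsf11 was at the floor, at a ratio of at most -2.26. Among 14 fibroblast markers 1 was at least 2-fold higher with iloprost, Pdpn at 1.00, where 2.1% of all genes were.

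The genes nearest to the 3 members with a log2 range of at least 1 were sought by the Euclidean distance between floored log2 signals, each centred on its own mean over the 4 arrays. The candidates were the 4688 or 4689 genes whose brightest scaled signal reached 113. Nearest to Csf2 were Rgs16 at a distance of 0.59, Lrig1 at 0.89, Mgp at 0.93, Nos2 at 0.96 and Igfbp3 at 1.00, and each of them was brightest with indomethacin. Nearest to Csf3 were Rffl at 0.25, Dusp16 at 0.25, Tma16 at 0.27, the neutrophil chemokine gene Cxcl2 at 0.31 and Id2 at 0.38. Nearest to Csf2rb were Slc16a1 at 0.23, Dgat1 at 0.35, Ugdh at 0.37, Gfpt2 at 0.38 and Tmem41a at 0.42. Each profile has 4 points from the same 4 dishes, so likeness here is a description, and the Csf2 and Csf3 profiles are shortened by the floor.

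**Figure D4:**
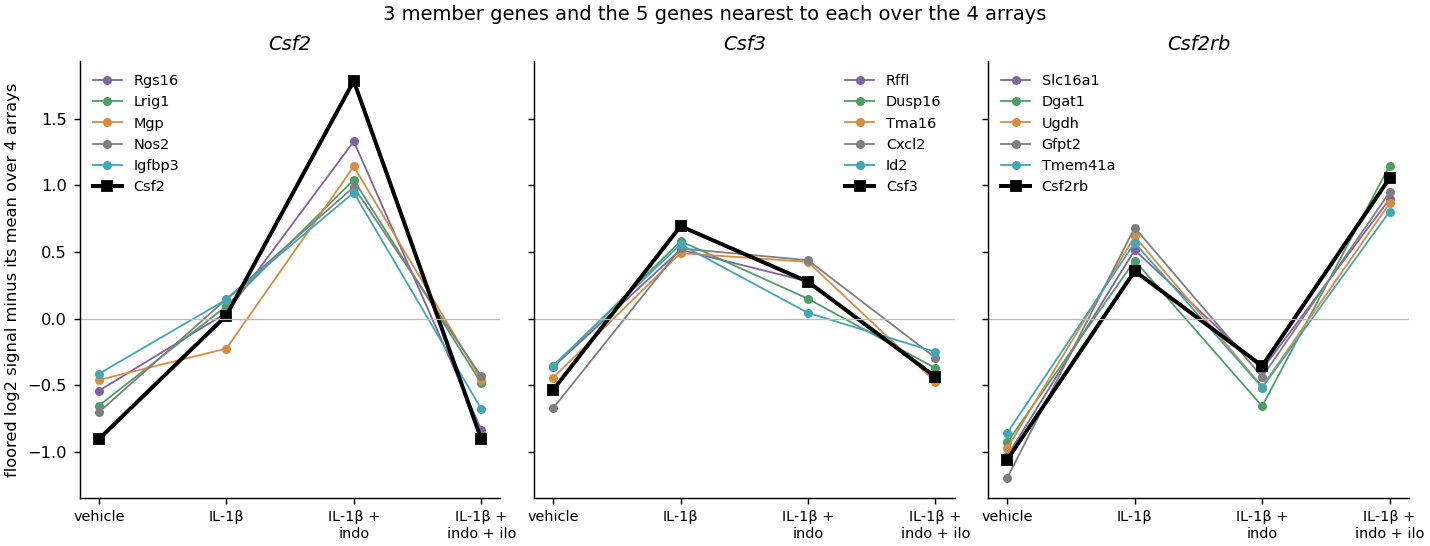
Floored log2 signal minus its mean over the 4 arrays for Csf2, Csf3 and Csf2rb (black squares) and for the 5 genes nearest to each (coloured circles), with indo for indomethacin and ilo for iloprost. Csf2 and its neighbours peak with indomethacin, Csf3 and its neighbours with IL-1beta, and Csf2rb and its neighbours with iloprost.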

How the data were processed

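RNA from 4 dishes, 1 for each treatment, was hybridised to 1-colour Affymetrix GeneChips by the maker's standard procedure, per the labels. The deposited values are linear intensity values, 1 per probe set and array. How the authors summarised probes, removed background and scaled arrays is not given in the sources used here. Median signals of the 4 deposited arrays ran from 35.2 to 40.6. With 1 array a group, the number of arrays limits the precision and no test was possible.

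Probe sets were named from the platform annotation, which can be old. Of 22690 probe sets 1606 were unnamed here, 691 named several genes and 64 were controls, and none of these was used. The symbols of 14 probe sets of the members and Csf2rb2 were checked by gene number against RefSeq (GRCm38.p6), and 0 differed. Arrays were divided by factors of 0.925 to 1.10, from the median log2 signal of the 10437 probe sets above the 50th percentile everywhere, then floored and put on the log2 scale with Python 3.11.15, numpy 2.4.6 and pandas 2.3.3. Each gene was represented by its brightest probe set (mean of log2 signals over arrays). Genes were called at 2-fold. Of 212 entries in 14 gene lists, 191 had a usable probe set.

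Genes named are the members, Csf2rb2, up to 4 genes per list past 2-fold in a comparison, and the 5 nearest genes. Il34, Zfp36, Zfp36l1, Zfp36l2, Spi1, Klf4, Runx1, Adam17 and the markers used as checks were named after their values were seen. The members and lists were chosen with earlier results of these data known. The scaling was tested on simulated data. Alternatives were other scalings, floors, a pseudocount, the median over probe sets and a 1.5-fold threshold. None of the 4 dishes had iloprost without indomethacin.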

Additional observations from a re-analysis of the deposited data

How the results depend on the processing

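Of 72 counts of members recomputed under the alternatives, 62 kept within 1.5 times the count given and 10 did not. On the deposited scale, 2 genes (Csf2 and Csf3) were at least 2-fold lower with both drugs against IL-1beta alone, where 1 is given. The share of all genes was 3.12%. With the floor at the 35th percentile, 2 were lower in that comparison, against 2.44%, and 2 (Csf2 and Csf3r) with iloprost added, against 3.21%. With the floor at the 65th percentile, 0 of 5 measured members were higher with IL-1beta against vehicle, against 1.59% of all genes. In the same setting 0 of 5 were lower with both drugs against IL-1beta alone, against 2.46%. With a pseudocount of 16 and no floor, 0 were lower in that last comparison, against 1.3%. At 1.5-fold, 1 gene (Csf2rb) was lower with indomethacin, against 2.39% of all genes, and 4 were lower with iloprost, against 6.94%. For both drugs against IL-1beta alone 1 (Csf2rb) was higher, against 5.2%, and 2 lower, against 5.67%. Fewer or more genes lie above a moved floor by construction; the cause was otherwise not tested.

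Over all alternatives the Csf2 ratio ran from 1.48 to 1.78 for added indomethacin and from -3.09 to -1.48 for added iloprost, and the Csf2rb ratio from 1.08 to 1.43 for added iloprost. The Csf1r ratio for iloprost ran from -0.06 to 0.49. The Csf3 ratio for IL-1beta ran from 0.02 to 2.69. The median of the lymphocyte markers for both drugs against IL-1beta was -0.0081 without a floor, where 10 genes were measured in place of 1. No paired analysis was possible because each treatment has 1 array. Signals near the floor limit what can be said of Csf3, Csf3r and Csf2.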
